A study of Mus musculus with 6 samples.

Results

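The nuclear genes for respiratory complexes III and IV, cytochrome c and ATP synthase were followed in the left ventricle of wild-type mice 5 weeks after transverse aortic coarctation (TAC), a surgical narrowing of the aorta that raises the pressure load on the ventricle, and 5 weeks after a sham operation. Members were all genes whose symbol begins with Uqcr, with Cox and a digit from 4 to 8, or with Atp5, together with Cyc1 and Cycs, and symbols carrying -ps were left out. The rule found 44 of the 24602 genes in the table, and it used no measured value. Complex III had 9 genes, cytochrome c 1, complex IV 17 and ATP synthase 17. There were 3 TAC and 3 sham libraries of poly(A) RNA. The labels give no other treatment or allele, and they do not say that each library came from its own mouse, so the spread between replicates may be partly technical.

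These complexes form the end of the mitochondrial respiratory chain. Complex III takes electrons from ubiquinol and hands them to cytochrome c, complex IV passes them on to oxygen, and both move protons across the inner membrane. ATP synthase lets the protons flow back through a ring of c subunits, whose rotation drives catalysis in the soluble F1 head. The heart meets almost all of its energy demand this way, and its cardiomyocytes are densely filled with mitochondria. Several complex IV subunits exist as a heart and skeletal muscle form and a form found in most tissues. Each complex except cytochrome c also contains subunits encoded in mitochondrial DNA.

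The libraries held between 64023153 and 69992502 estimated counts. Genes known to rise under pressure overload were higher in TAC, among them Nppb, which encodes B-type natriuretic peptide (log2 fold change 1.58 ± 0.16, edgeR adjusted p = 0.00861), Nppa and Acta1, while Myh7 did not pass the test. The mitochondrial chromosome took 29.2%, 27.2% and 22.6% of the counts in TAC libraries and 19.2%, 14.8% and 16.7% in sham libraries. The 44 members took 3.98%, 4.001% and 3.22% of the nuclear counts in TAC libraries and 3.85%, 4.43% and 4.53% in sham libraries. TAC replicate 3 stood apart from the other TAC libraries: its 7 fibroblast markers summed to 1668 CPM (counts scaled by edgeR's TMM library size), against 649 and 610.2 CPM in TAC replicates 1 and 2 and 406 to 617 CPM in sham libraries. Its 10 cardiomyocyte markers summed to 58417 CPM, against 77603 and 80235 CPM in TAC replicates 1 and 2 and 81540.1 to 90263 CPM in sham libraries. Single markers differed. Among the TAC libraries, replicate 3 was lowest for Myh6 (16521 CPM, against 24006 and 24379), Tnnt2, Tnni3, Actn2, Myl2, Myl3 and Actc1. It was highest for Ryr2 (453 CPM, against 268 and 222), Pln and Mybpc3. Of the cardiomyocyte markers 0 of 10 passed the test in edgeR (0 at an unadjusted p under 0.05), DESeq2 or limma, and of the fibroblast markers 3 of 7 (Dcn, Lum and Postn) rose; only Postn was called among them once trends with GC content and length were removed. Of the tested markers of other cells, 0 of 6 endothelial, 0 of 5 macrophage, 2 of 6 smooth muscle and pericyte (Cnn1 and Rgs5), 1 of 5 atrial (Nppa), 0 of 1 brown fat and 1 of 2 skeletal muscle markers (Acta1) were called, all of them higher.

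Of the 44 members, 43 reached a mean FPKM (the authors' level per transcript length) of 1 over the 6 libraries and could be tested. Genes were called, and are said to rise or fall, at an adjusted p under 0.05 in edgeR's quasi-likelihood test; the error given with a log2 fold change is its standard error, and values by library are in the order of replicates 1, 2 and 3. Uqcrb and Cox7b rose, which is 4.65% of the tested members, and 0 fell. Over all 8795 tested genes 4.71% rose and 2.29% fell, so the members were called higher about as often as the background. At an unadjusted p under 0.05, edgeR had 4 members higher and 2 lower, and DESeq2 called 3 higher and 0 lower after adjustment. Taken over both directions, each was a smaller share of the members than of all tested genes. The median log2 fold change of TAC over sham was -0.01 over the members and -0.01 over all tested genes. Values of single members ran from -0.51 (Uqcrc1) to 0.86 (Uqcrb), with 21 above 0 and 22 below. CPM of the 2 groups did not overlap in 4 members that were higher in TAC (9.30%) and in 5 that were lower (11.6%), against 17.7% and 17.1% of all tested genes. In bulk tissue, fewer cells of a type and less RNA per cell cannot be told apart.

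**Figure D1:**
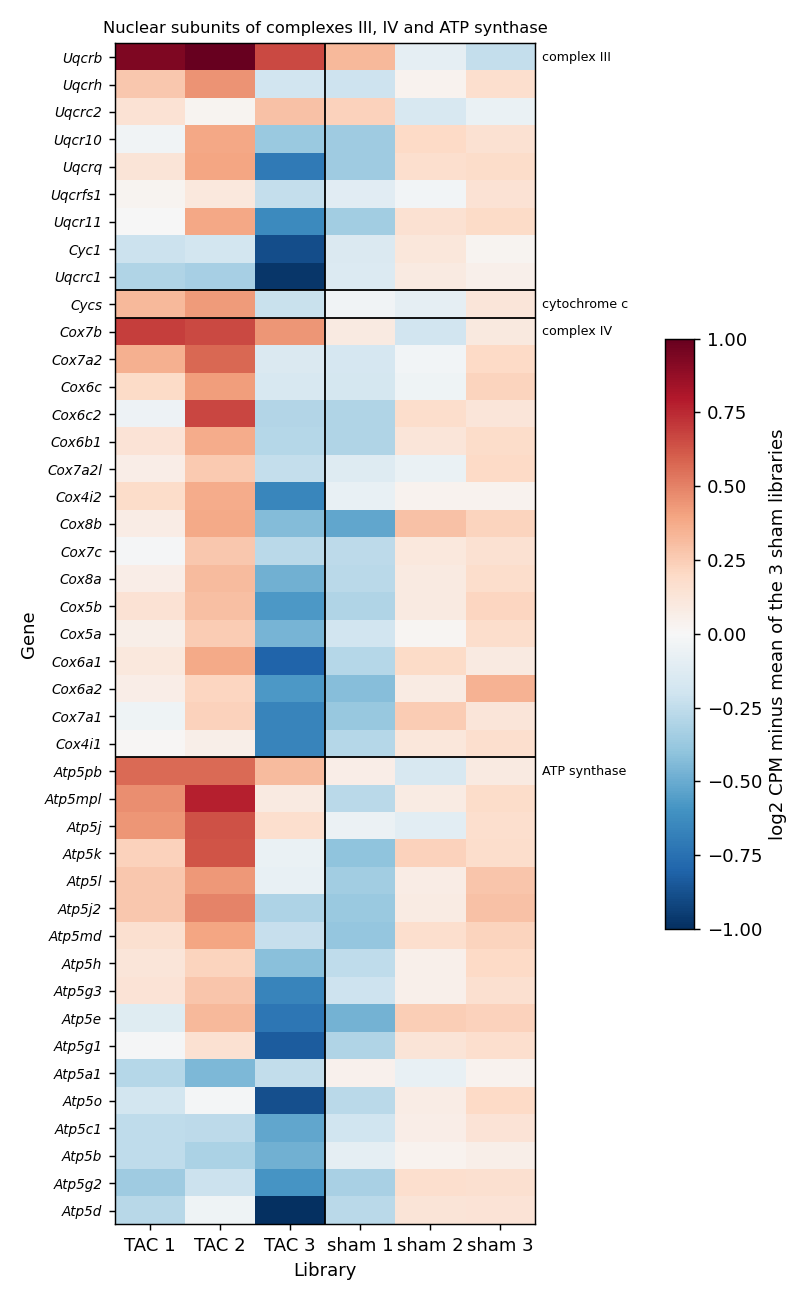
Level of each of the 43 tested members in each library, as log2 CPM minus the mean of the sham libraries for that gene. Rows are genes grouped by complex, columns are TAC replicates 1 to 3 and then sham replicates 1 to 3, and the colour scale is limited to 1 log2 unit either way; TAC replicate 3 is the lowest TAC library in 41 genes and sham replicate 1 the lowest sham library in 36.

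The libraries of a group differed from each other along nearly the whole set of members, as the map of levels by library shows. TAC replicate 3 was the lowest TAC library in 41 of 43 members and TAC replicate 2 the highest in 37. Sham replicate 1 was the lowest sham library in 36 members and sham replicate 3 the highest in 29. The median log2 deviation from the mean of all 6 libraries was 0.10, 0.33 and -0.37 in the TAC libraries and -0.24, 0.11 and 0.19 in the sham libraries. Without TAC replicate 3, 6 members were called higher (Atp5pb, Atp5mpl, Uqcrb, Atp5j, Cox7b and Cox7a2; 14.0%) and 0 lower, against 9.24% and 10.1% of all tested genes, and the members' median was 0.19. Without both TAC replicate 3 and sham replicate 1, 5 members were called higher (Uqcrb, Cox7b, Atp5pb, Atp5j and Atp5mpl; 11.6%) and 2 lower (Uqcrc1 and Atp5g2; 4.65%), against 10.4% and 8.50% of all tested genes. Without TAC replicate 1 or 2, or without sham replicate 2 or 3, 0 members were called and the calls over all genes came to 51, 133, 12 and 51; without sham replicate 1 only Uqcrb was called among the members, and 361 genes over all. The part that the marker content of TAC replicate 3 has in these values was not tested.

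Base composition moved with the result too. The log2 fold change had a Spearman correlation with the GC content of the transcripts of -0.58 over the 43 members and -0.51 over 8790 tested genes, a description across genes that share the same 6 libraries. In the 6 members under 45% GC the median log2 fold change was 0.18, against 0.65 over all tested genes of that range, and in the 11 members of 55% GC or more it was -0.04, against -0.17. A second fit removed the trend with GC content and transcript length from each library. It called 0 members higher and 2 lower (Cox7c and Atp5c1; 4.65%), against 2.71% and 2.35% of all tested genes (238 higher and 207 lower), and the members' median was -0.11. In that fit the correlation with GC content was 0.21 over the members and 0.00 over all tested genes. The correlation with length was -0.43 over the members, against -0.27 in the main fit, and 0.00 over all tested genes. On the FPKM scale, tested with limma, the calls over all genes were 174 higher and 338 lower, or 34.0% higher, where the CPM fit gave 414 higher and 201 lower, or 67.3% higher. The median of all tested genes on that scale was -0.13 and that of the members -0.17.

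**Figure D2:**
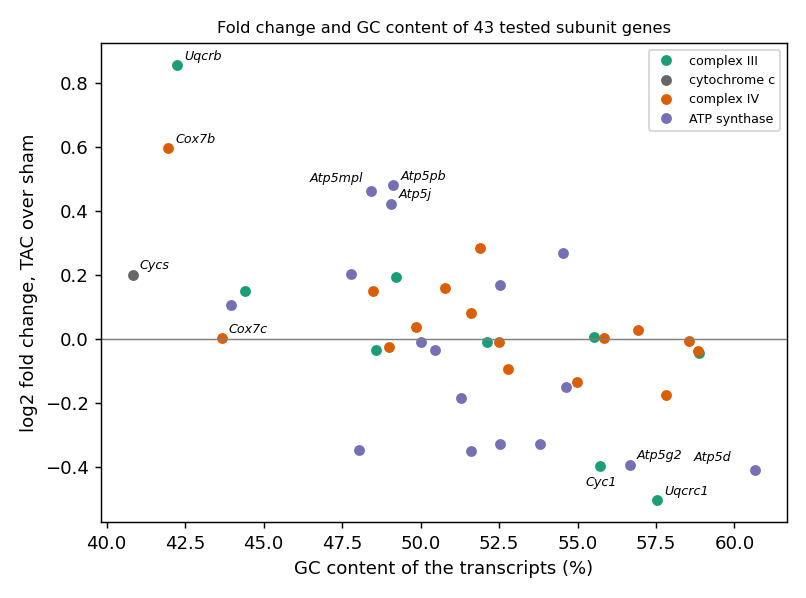
Log2 fold change of TAC over sham (vertical axis) against the GC content of the transcripts in percent (horizontal axis); each point is 1 of the 43 tested members, coloured by complex. The members with the lowest GC content, Uqcrb and Cox7b among them, have values at or above 0, and those of 55% GC or more lie between -0.51 and 0.03.

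Complex III had 1 gene that rose, 0 that fell and 8 that did not pass the test, with a median log2 fold change of -0.01. Uqcrb, a small subunit that sits beside cytochrome b, had 96.6, 102 and 80.3 CPM in TAC ventricles, against 63.5, 47.8 and 43.0 CPM in sham ventricles. Every TAC library was above every sham library, and the log2 fold change was 0.86 ± 0.18 (edgeR adjusted p = 0.035). Per length, Uqcrb had 94.0, 99.6 and 89.3 FPKM in TAC ventricles, against 70.1, 55.4 and 48.0 FPKM in sham ventricles. The gene lies on chromosome 13 (66900617 to 66905378, minus strand) in GRCm38, its transcripts have a GC content of 42.2%, and 5.7% of its exonic bases overlap a record on the other strand. With the GC and length trends removed its log2 fold change was 0.03 (edgeR adjusted p = 0.954), and over all alternatives its adjusted p ran from 0.000623 to 0.954.

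The 2 core proteins face the matrix and belong to the family of mitochondrial processing peptidases. Uqcrc1 had 2537, 2476 and 1592 CPM in TAC ventricles, against 2845, 3312 and 3224 CPM in sham ventricles. All TAC values lay under all sham values, but the difference of -0.51 ± 0.20 did not pass the test (edgeR adjusted p = 0.151). Uqcrc2 had a log2 fold change of 0.15 ± 0.16, with overlapping groups, and the direction turned with the trends removed (-0.35, edgeR adjusted p = 0.103); 19.7% of its exonic bases overlap a record on the other strand.

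Among the electron carriers, Cyc1, the cytochrome c1 that passes electrons to cytochrome c, had 1174, 1196 and 734 CPM in TAC ventricles, against 1233, 1471 and 1385 CPM in sham ventricles. Its groups did not overlap either, with a log2 fold change of -0.40 ± 0.21 (edgeR adjusted p = 0.251). Uqcrfs1, the Rieske iron-sulfur protein, had 496, 523 and 412 CPM in TAC ventricles, against 450.4, 477 and 537 CPM in sham ventricles, and its groups overlapped (-0.03 ± 0.15). Cycs, the mobile cytochrome c, had 393, 420.4 and 269 CPM in TAC ventricles, against 306, 295 and 341 CPM in sham ventricles. TAC replicates 1 and 2 were above every sham library and TAC replicate 3 below every one, and the log2 fold change of 0.20 ± 0.19 did not pass the test (edgeR adjusted p = 0.528); with the trends removed it was -0.51.

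The other small subunits showed the low library of each group plainly. Uqcrq, a small subunit of the membrane part, had 549, 661 and 307 CPM in TAC ventricles, against 393, 564 and 569.8 CPM in sham ventricles, with a log2 fold change of -0.01 ± 0.28. Uqcr10, Uqcr11 and Uqcrh were between -0.04 and 0.19, all with overlapping groups. Summed over the 9 genes, complex III had 5919 CPM, 6100.1 CPM and 4098 CPM in TAC ventricles, against 5949 CPM, 6828 CPM and 6767 CPM in sham ventricles, and the groups overlapped.

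**Figure D3:**
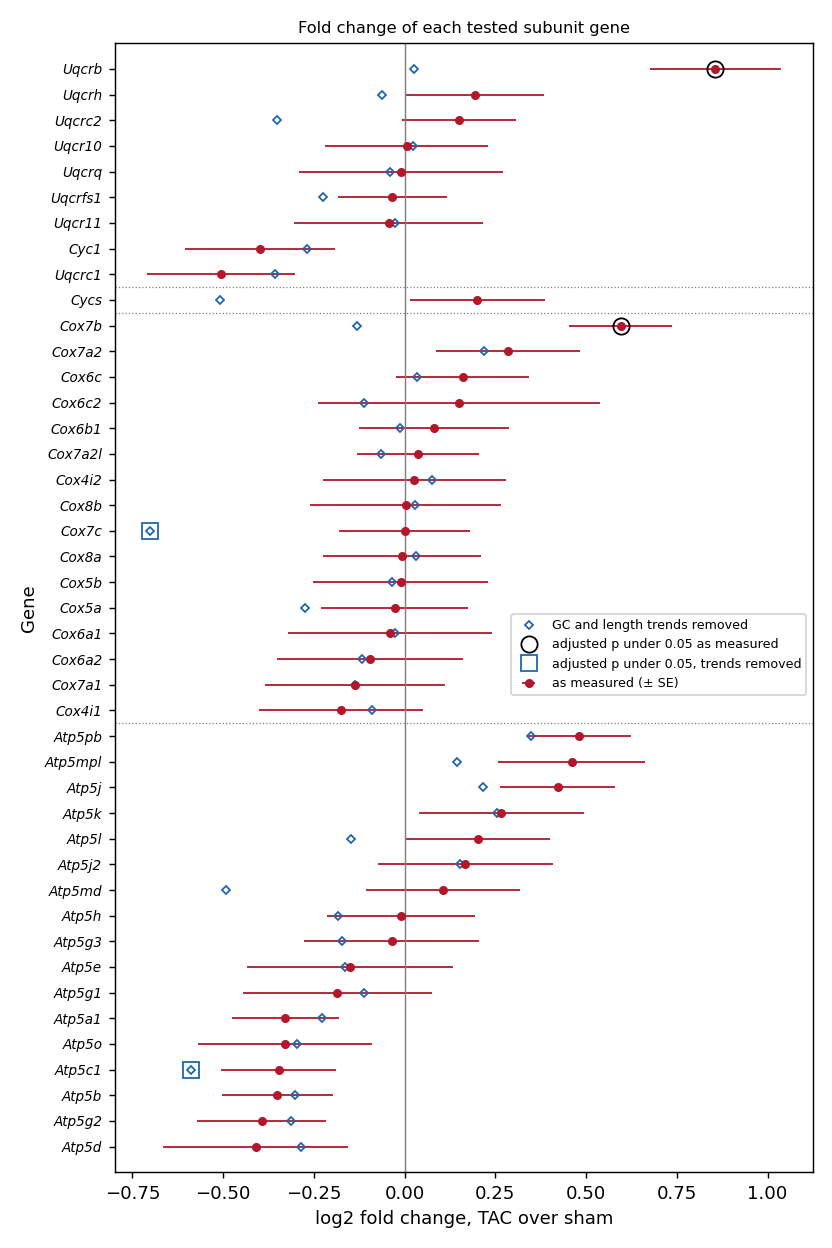
Log2 fold change of TAC over sham for the 43 tested members (horizontal axis), by complex from top to bottom (complex III, cytochrome c, complex IV, ATP synthase); red dots with bars are the main fit with its standard error and blue diamonds the fit with the GC and length trends removed. Black circles mark Uqcrb and Cox7b, the 2 genes called in the main fit, and blue squares mark Cox7c and Atp5c1, the 2 called with the trends removed.

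Complex IV had 1 gene that rose, Cox7b, 0 that fell and 15 that did not pass the test among 16 tested, and its median was 0.00. Cox7b, a small membrane subunit known in human cells to be needed for assembly of the complex, had 137, 134 and 115 CPM in TAC ventricles, against 90.7, 74.5 and 91.1 CPM in sham ventricles. The TAC and sham ranges were separate, and the log2 fold change was 0.60 ± 0.14 (edgeR adjusted p = 0.0456). Its level per length was 96.5, 94.4 and 92.6 FPKM in TAC ventricles, against 72.3, 62.4 and 73.3 FPKM in sham ventricles. The gene lies on chromosome X (106015700 to 106022450, plus strand) in GRCm38 and its transcripts have a GC content of 42.0%. With the trends removed the log2 fold change was -0.13 (edgeR adjusted p = 0.407), and over all alternatives the adjusted p ran from 0.00299 to 0.524.

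Cox7c, a small subunit close to Cox7b in GC content (43.7%), had 178, 215 and 148 CPM in TAC ventricles, against 149, 193 and 199 CPM in sham ventricles. Its groups overlapped, with a log2 fold change of 0.00 ± 0.18 in the main fit, and -0.70 with the trends removed, where it was called lower (edgeR adjusted p = 0.0276). Reads of its processed copy Cox7c-ps1, listed with 24 to 41 counts per library, may be divided between the 2 records. Cox4i1, the most abundant form of the largest nuclear subunit, which binds ATP, had 2454, 2547 and 1546 CPM in TAC ventricles, against 2002, 2641 and 2748 CPM in sham ventricles. Its groups overlapped and its log2 fold change was -0.17 ± 0.23. Cox6b1, which joins the 2 monomers of the complex on the side of the intermembrane space, had 439.8, 518 and 328 CPM in TAC ventricles, against 325, 436 and 455 CPM in sham ventricles, with a log2 fold change of 0.08 ± 0.21. Cox5a, Cox5b, Cox6c and Cox7a2l, a subunit homologue that links complex IV to complex III, were between -0.03 and 0.16. Cox5b shares sequence with Cox5b-ps, which the table lists with 923 to 1655 counts per library. Cox6c2, a processed pseudogene in the table's annotation, had 21 to 38 counts per library and a log2 fold change of 0.15 ± 0.39.

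The sequences before the start sites of 4 complex IV genes are given. They set Cox7b, a called gene, beside the heart and the general form of subunit 7a. They also set it beside Cox6a1, whose window holds matches to the factor letters below. Uqcrb, the other called gene, had no window among those used. The sequences are the 250 bases before the start in RefSeq on GRCm38.p6, 5′ to 3′ on the strand of the gene. Capitals mark matches to the NRF1 letters, GCGCA and GCGC with 1 base between them, the site of the nuclear respiratory factor of that name, or to CCGGAAG, an ETS site of the kind bound by GABP, on either strand.
Cox7b, chrX:106015450-106015699, plus strand: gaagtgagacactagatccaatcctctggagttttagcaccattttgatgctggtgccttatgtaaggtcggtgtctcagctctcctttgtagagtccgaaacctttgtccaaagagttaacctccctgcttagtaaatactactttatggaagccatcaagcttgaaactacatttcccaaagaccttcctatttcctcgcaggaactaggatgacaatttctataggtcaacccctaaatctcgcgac
Cox7a2, chr9:79759854-79760103, minus strand: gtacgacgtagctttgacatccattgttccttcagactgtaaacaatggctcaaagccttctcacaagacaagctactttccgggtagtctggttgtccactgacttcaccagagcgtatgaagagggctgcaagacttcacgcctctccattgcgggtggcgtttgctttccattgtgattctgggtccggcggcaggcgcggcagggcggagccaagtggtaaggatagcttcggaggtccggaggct
Cox7a1, chr7:30183921-30184170, plus strand: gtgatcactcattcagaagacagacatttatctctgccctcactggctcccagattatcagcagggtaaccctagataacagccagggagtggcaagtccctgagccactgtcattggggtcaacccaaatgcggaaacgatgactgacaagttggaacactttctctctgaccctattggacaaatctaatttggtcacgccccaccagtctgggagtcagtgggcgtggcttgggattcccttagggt
Cox6a1, chr5:115348959-115349208, minus strand: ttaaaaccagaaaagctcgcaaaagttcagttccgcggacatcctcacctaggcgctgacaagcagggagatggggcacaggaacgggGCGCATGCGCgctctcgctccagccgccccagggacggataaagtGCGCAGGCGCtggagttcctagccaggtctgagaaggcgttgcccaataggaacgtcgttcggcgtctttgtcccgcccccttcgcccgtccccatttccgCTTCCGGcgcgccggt
Cox6a1 has 2 matches to the NRF1 letters and 1 to the ETS letters, and the other 3 windows have none. RefSeq gave 36 windows for 33 of the 44 members. The NRF1 letters were in 5 of 36 windows (13.9%; Atp5c1, Atp5g2, Atp5h, Atp5k and Cox6a1), against 3.74% of 32851 windows of all genes. The ETS letters were in 8 of 36 (22.2%), against 6.91%, with Atp5h and Cox6a1 in both sets. TCAAGGTCA, the site of oestrogen-related receptors, was in 1 window (2.78%, Atp5g3), against 0.387%. CTA and TAG with any 4 bases between them, a pattern wider than the MEF2 site, were in 1 (2.78%, Cox5b), against 3.202%. The member windows had a median GC content of 54.2% and all windows 52.4%.

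For subunits with tissue forms, the share of the general form was compared as a ratio of FPKM per library. The heart form of subunit 7a, Cox7a1, had 226, 274 and 169 FPKM in TAC ventricles, against 204, 332 and 291 FPKM in sham ventricles. Cox7a2, the general form, had 132, 153 and 107 FPKM in TAC ventricles, against 104, 120.4 and 135 FPKM in sham ventricles. The Cox7a2 to Cox7a1 ratio was 58.3%, 55.9% and 63.1% in TAC ventricles, against 51.1%, 36.3% and 46.5% in sham ventricles, and the groups did not overlap. The difference was 0.42 on the log2 scale with an exact two-sided permutation p of 0.1, the smallest that 3 against 3 allows, and 0.6 after adjustment over the 8 ratios compared. TAC replicate 3, in which both genes were at their lowest among the TAC libraries, had the highest ratio.

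No other ratio separated the groups. Cox6a2, the heart form of subunit 6a, had 1127, 1249 and 825 FPKM in TAC ventricles, against 910.3, 1357 and 1571 FPKM in sham ventricles. Its general form Cox6a1 had 66.2, 79.9 and 40.4 FPKM in TAC ventricles, against 57.3, 84.0 and 75.1 FPKM in sham ventricles, and Cox6a1 came to 5.72% ± 0.761 of Cox6a2 in TAC and 5.75% ± 0.846 in sham (SD, n = 3 each, exact permutation p = 1.0). Cox8b, the heart form of subunit 8, had 278, 344 and 224 FPKM in TAC ventricles, against 209, 386 and 353 FPKM in sham ventricles. Cox8a, the general form, had 82.4, 97.8 and 64.3 FPKM in TAC ventricles, against 73.9, 99.8 and 102 FPKM in sham ventricles, or 28.9% ± 0.609 of Cox8b in TAC and 30.0% ± 4.84 in sham (SD, n = 3 each, exact permutation p = 0.8). Cox4i2, a form of subunit 4 known from lung and from low oxygen, had 16.6, 19.0 and 10.7 FPKM in TAC ventricles, against 15.9, 17.99 and 17.3 FPKM in sham ventricles, or 1.23% ± 0.128 of Cox4i1 in TAC and 1.10% ± 0.147 in sham (SD, n = 3 each, exact permutation p = 0.3). Cox6b2, the testis form of subunit 6b, was the one member not tested: it had 29, 23 and 39 counts in TAC ventricles, against 18, 124 and 77 counts in sham ventricles. Its FPKM was 0.365 ± 0.0955 in TAC and 0.941 ± 0.704 in sham (SD, n = 3 each), 0.0713% and 0.154% of Cox6b1, with an exact permutation p of 0.3.

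**Figure D4:**
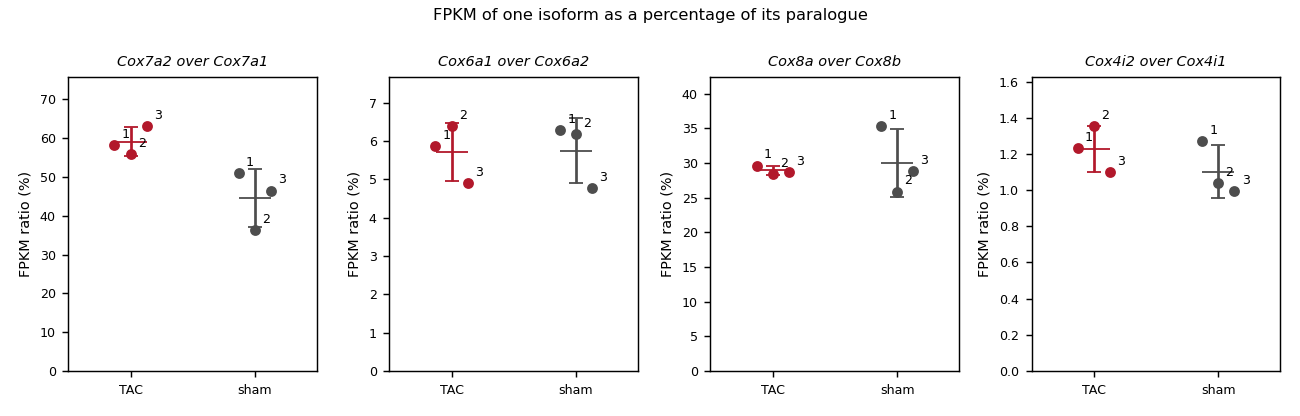
FPKM ratio in percent for 4 pairs of complex IV subunit forms; each point is a library with its replicate number, TAC left of sham, with the mean and SD of each group of 3. The Cox7a2 to Cox7a1 ratio lies between 55.9% and 63.1% in TAC and between 36.3% and 51.1% in sham, and the groups of the other 3 ratios overlap.

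ATP synthase had 0 genes that rose or fell among 17 tested, with a median of -0.04, and limma called 0 too. At an unadjusted p under 0.05 edgeR had 2 higher and 1 lower, and DESeq2 called 1, Atp5pb, higher after adjustment. Taken over both directions, each was a smaller share than over all tested genes. The values follow by the place of the subunit in the enzyme. All 5 subunits of the F1 head were below 0 in the main fit and under every other scaling, with a median of -0.35; without TAC replicate 3, Atp5e was at 0.08. The 5 small membrane subunits were above 0, with a median of 0.20, in the main fit. Atp5md was at -0.04 on the FPKM scale and at -0.04 without sham replicate 1, Atp5md and Atp5l were below 0 with the trends removed, and Atp5md and Atp5j2 were below 0 without TAC replicate 2. The 3 c ring genes had a median of -0.19, and all were below 0 in the main fit. Atp5g3 was above 0 under upper-quartile scaling, at a mean FPKM of 5 or more and without sham replicate 3, and both Atp5g3 (0.20) and Atp5g1 (0.06) were above 0 without TAC replicate 3. The 4 genes of the peripheral stalk had a median of 0.21. These groups hold few genes, none of which passed the test, and the difference between them was not tested.

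In the F1 head, Atp5b, the catalytic beta subunit and the most abundant member, had 7196, 6895 and 6169 CPM in TAC ventricles, against 8075, 8810.4 and 8949 CPM in sham ventricles. TAC lay below sham without overlap, at -0.35 ± 0.15 (edgeR adjusted p = 0.176). Atp5a1, the alpha subunit that alternates with beta around the head, had 4118, 3672 and 4229 CPM in TAC ventricles, against 5169.6, 4775 and 5141 CPM in sham ventricles, again without overlap, at -0.33 ± 0.15 (edgeR adjusted p = 0.186). In Atp5a1 and in Uqcrc2, TAC replicate 3 was the highest TAC library, while it was the lowest in the other 41 tested members. Atp5c1, the gamma subunit that turns inside the head, had 1428, 1418 and 1186 CPM in TAC ventricles, against 1480.0, 1783 and 1867 CPM in sham ventricles. Its groups were separate at -0.35 ± 0.16 (edgeR adjusted p = 0.196), and it was called lower with the trends removed (-0.59, edgeR adjusted p = 0.0478). Atp5d, the delta subunit at the foot of the rotor, had 729, 855 and 427 CPM in TAC ventricles, against 733, 966 and 973 CPM in sham ventricles, and sham replicate 1 lay within the TAC values (-0.41 ± 0.26). Atp5e, the epsilon subunit beside it, was at -0.15 ± 0.28. Summed over the 5 genes, the F1 head had 13576 CPM, 12983 CPM and 12080.3 CPM in TAC ventricles, against 15540.0 CPM, 16469 CPM and 17063 CPM in sham ventricles. The 2 groups did not overlap, and the ratio of their means was 0.787 in CPM and 0.709 in FPKM. The summed cardiomyocyte markers were also lower in TAC, with a ratio of 0.847 in CPM and 0.771 in FPKM. Single markers did not move as one. They ran from -0.47 for Myh6, the most abundant and separate, to 0.48 for Ryr2, and Tnnt2 was separate and higher (0.35). The part of these markers in the F1 sum was not tested.

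The c ring is built from identical proteins made by 3 genes that differ in their import sequences. Atp5g1 had 994, 1112 and 561 CPM in TAC ventricles, against 814, 1096 and 1121 CPM in sham ventricles, with overlapping groups (-0.19 ± 0.26). Atp5g2 had 215, 237 and 183 CPM in TAC ventricles, against 219, 309 and 307 CPM in sham ventricles, where TAC replicate 2 was above sham replicate 1 and the other TAC values were below all sham values (-0.39 ± 0.18, edgeR adjusted p = 0.19). Atp5g3 had 866, 952 and 499 CPM in TAC ventricles, against 682, 814 and 878 CPM in sham ventricles, with sham replicate 1 low and TAC replicate 3 lower still (-0.04 ± 0.24). Of the summed FPKM of the 3 genes, Atp5g3 made up 53.1% ± 2.20 in TAC and 49.5% ± 1.75 in sham (SD, n = 3 each, exact permutation p = 0.2, adjusted p = 0.6 over the 8 ratios). The share of Atp5g2 was 19.8% ± 3.78 in TAC and 22.5% ± 1.07 in sham, and that of Atp5g1 27.1% ± 1.59 in TAC and 27.9% ± 0.686 in sham (SD, n = 3 each).

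The peripheral stalk holds the head still against the turning rotor. Atp5pb, its b subunit, had 431, 431 and 363 CPM in TAC ventricles, against 306, 262 and 311 CPM in sham ventricles. The groups were separate, and the log2 fold change of 0.48 ± 0.14 did not pass the test in edgeR (adjusted p = 0.0748) but did in DESeq2. It remained at 0.35 with the trends removed (edgeR adjusted p = 0.101) and was called without TAC replicate 3 (0.56, edgeR adjusted p = 0.0196). A processed copy, Atp5pb-ps, is listed with 151 to 343 counts per library. Atp5j, coupling factor 6 of the stalk, had 147, 168 and 122 CPM in TAC ventricles, against 104, 100.4 and 121 CPM in sham ventricles, barely separate at 0.42 ± 0.16, and 12.7% of its exonic bases overlap Gabpa on the other strand. Atp5o, the subunit that ties the stalk to the head and confers oligomycin sensitivity, had 1393, 1563 and 858 CPM in TAC ventricles, against 1310.2, 1662 and 1818 CPM in sham ventricles, with overlapping groups (-0.33 ± 0.24); 35.6% of its exonic bases overlap a record on the other strand. Atp5h, the d subunit, was at -0.01 ± 0.20.

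The small membrane subunits sit where 2 ATP synthases meet and bend the membrane. Atp5mpl had 61.2, 75.9 and 47.1 CPM in TAC ventricles, against 36.7, 46.9 and 50.2 CPM in sham ventricles; TAC replicate 3 lay between sham replicates 2 and 3, and the log2 fold change was 0.46 ± 0.20 (edgeR adjusted p = 0.179). Atp5k, Atp5l, Atp5j2 and Atp5md were between 0.11 and 0.27, all with overlapping groups. With the trends removed, Atp5l and Atp5md were at -0.15 and -0.49, below 0, and the others stayed above 0. The 5 genes summed to 811 CPM, 951 CPM and 590.0 CPM in TAC ventricles, against 524 CPM, 720.5 CPM and 807 CPM in sham ventricles, a ratio of means of 1.15 with overlapping groups. Over all 17 genes, ATP synthase had 19204 CPM, 19224 CPM and 15787 CPM in TAC ventricles, against 20092.9 CPM, 22165 CPM and 23242 CPM in sham ventricles, without overlap and with a ratio of 0.828. The F1 head carries most of this sum. Most of the F1 head in turn is Atp5b (mean 6753 CPM in TAC, 8611 CPM in sham) and Atp5a1 (4006 and 5028 CPM). The sum thus weighs these abundant genes most and does not stand for each subunit, none of which was called.

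**Figure D5:**
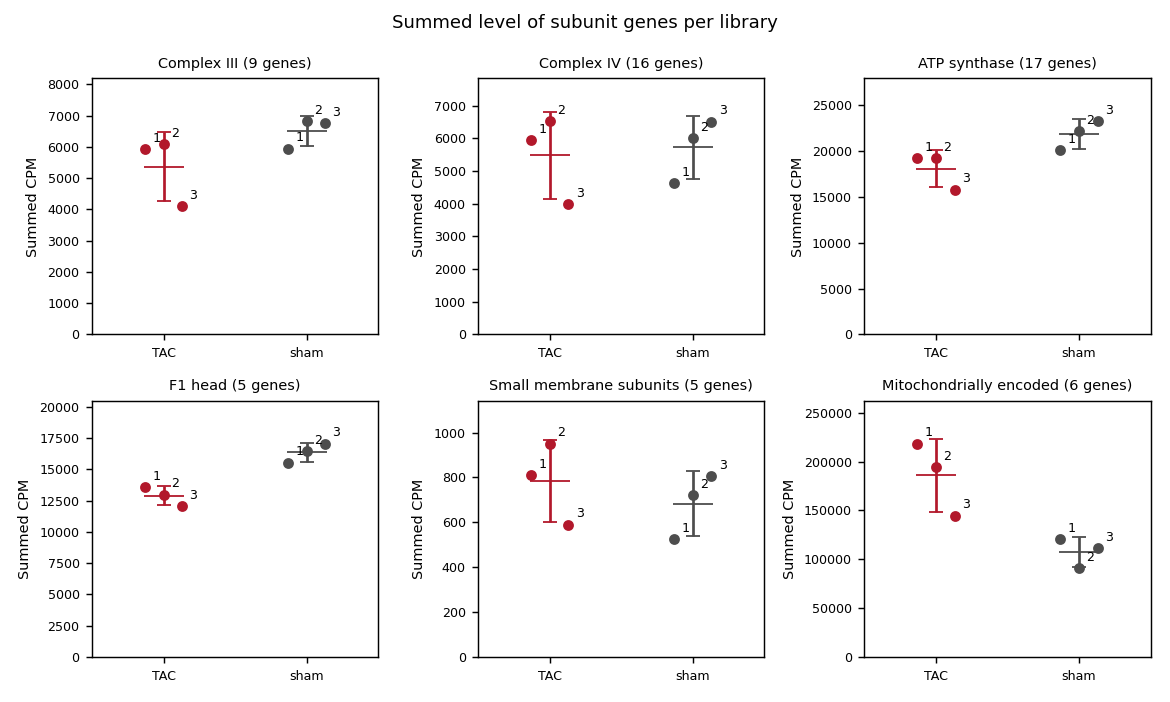
Summed CPM of each complex, of the F1 head, of the small membrane subunits and of 6 mitochondrially encoded subunits in each library; points are libraries with their replicate number, TAC left of sham, and bars are the mean and SD of 3. The TAC and sham points are separate for ATP synthase (15787 to 19224 CPM in TAC) and for its F1 head (12080.3 to 13576 CPM in TAC), both lower in TAC, and for the mitochondrially encoded subunits, higher in TAC. The points overlap for complexes III and IV and the small membrane subunits. Atp5b and Atp5a1 make up most of the F1 head and ATP synthase sums.

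Mitochondrial DNA encodes 6 further subunits of the same complexes, and 3 of them rose: mt-Co2 (log2 fold change 1.0 ± 0.25, edgeR adjusted p = 0.0483), which receives electrons from cytochrome c, and mt-Atp6 (1.01 ± 0.24, edgeR adjusted p = 0.0458) and mt-Atp8 (1.01 ± 0.24, edgeR adjusted p = 0.0467) of the membrane part of ATP synthase. The other 3 were between 0.66 and 0.93, and in all 6 the groups were separate. Over all tested genes 4.71% rose, and 17.7% were separate and higher in TAC. Summed, the 6 mitochondrially encoded genes had 218486 CPM, 194459 CPM and 144602 CPM in TAC ventricles, against 120409 CPM, 90671 CPM and 111322 CPM in sham ventricles. Their median log2 fold change was 0.97, against -0.01 for the nuclear members. With the trends removed their median was 0.03 and 0 of 6 were called. Limma on FPKM called 0, and DESeq2, which called more genes over all than edgeR, called 6 of 6. Nuclear copies of mitochondrial DNA on chromosome 1 are nearly identical to parts of these genes, so their counts are uncertain.

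Of 30 tested assembly factors, the proteins that build the complexes, 0 were called in edgeR after adjustment. In edgeR 11 had an unadjusted p under 0.05, a count not compared with its share over all tested genes. DESeq2, which called more genes over all than edgeR, called 2 higher and 1 lower, and limma called 0. With the trends removed edgeR called 1 of them lower, Cox15 (-0.71, edgeR adjusted p = 0.0329), which serves the making of haem a and was named for that call. In the main fit their median was 0.10 (-0.16 with the trends removed). Over all tested genes 17.7% were separate and higher in TAC and 17.1% separate and lower, and of the 30 assembly factors 4 and 5 were. The highest in FPKM were Coa3, a partner in the first steps of complex IV assembly (-0.17 ± 0.24), and Uqcc2, which assists the making of cytochrome b (0.11 ± 0.27). Of 8 supercomplex and regulatory proteins, which include the members Cox7a2l and Atp5md, 0 were called in edgeR and in limma, and 1 had an unadjusted p under 0.05 in edgeR and was called in DESeq2. It was Atpif1, the inhibitor of ATP hydrolysis by ATP synthase, named after its values were seen, at 0.51 ± 0.16 (edgeR adjusted p = 0.0879) with separate groups.

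Complexes I and II bring electrons to ubiquinone, ahead of complex III. Of 36 nuclear subunits of complex I, which takes them from NADH, 2 rose and 0 fell, with a median of -0.06. Over all tested genes 4.71% rose and 2.29% fell. Ndufa1, a small subunit needed for assembly, rose by 0.88 ± 0.21 on the log2 scale (edgeR adjusted p = 0.0421; 0.47 with the trends removed and not called, edgeR adjusted p = 0.0932), and Ndufa5 of the matrix arm by 0.86 ± 0.19 (edgeR adjusted p = 0.0387; 0.71 with the trends removed, edgeR adjusted p = 0.0368). Of the 4 subunits of complex II, 0 passed edgeR's test and 2 had an unadjusted p under 0.05. Limma, and DESeq2 with its larger number of calls over all genes, each called 2 lower, Sdhc and Sdhd. With the trends removed edgeR called Sdhd lower (-0.56, edgeR adjusted p = 0.0218). All 4 were below 0, with a median of -0.34. The exception was Sdha, above 0 at a mean FPKM of 5 or more, without TAC replicate 2 and without sham replicate 1. The highest in FPKM, Sdhb and Sdhd, were at -0.25 ± 0.22 and -0.43 ± 0.12.

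Among 8 tested regulators of respiratory gene transcription, 1 fell and 0 rose, against 2.29% and 4.71% of all tested genes. Esrra, the oestrogen-related receptor alpha that acts on many respiratory genes, had 118, 117 and 109 CPM in TAC ventricles, against 148, 185 and 167 CPM in sham ventricles, without overlap, at -0.54 ± 0.13 (edgeR adjusted p = 0.0489); with the trends removed it was at -0.31 and did not pass (edgeR adjusted p = 0.096). Ppargc1a (0.87 ± 0.28, edgeR adjusted p = 0.0888) and Tfam (0.65 ± 0.18, edgeR adjusted p = 0.068) did not pass, with groups separate and higher in TAC. With the trends removed they were at 0.44 and 0.18. Pprc1 (-0.36 ± 0.14) and Perm1 (-0.38 ± 0.14) were separate and lower without passing. Esrrb was at -0.29, Ppargc1b at 0.07 and Yy1 at 0.14, with overlapping groups. Nrf1, Gabpa and Esrrg had a mean FPKM under 1 and were not tested.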

How the data were processed

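RNA of the left ventricle was measured in 3 TAC and 3 sham libraries, grouped by the labels. Per the labels' protocols, poly(A) RNA was fragmented and libraries were made by a dUTP method that marks strand. The submitters' processing notes name GRCm38 as the build, and StringTie 1.3.4d, HISAT2 2.0.4 and cutadapt 1.9 as tools; the sources used here do not say how counts were made, or whether strand was used. Per the file headers, the authors deposited FPKM, scaled by transcript length and library, and estimated counts for each gene and library. The totals of 64023153 to 69992502 counts give the depth, and the counts are estimates that divide reads between records, so counting error understates their spread.

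The counts, already whole, were tested with edgeR 4.0.16 (glmQLFit and glmQLFTest, TMM scaling, R 4.3.3) over the 8795 genes whose FPKM averaged at least 1, with Benjamini-Hochberg adjustment over all of them; called means an adjusted p under 0.05. The plan named counts and the file holds estimated counts. The SE of a log2 fold change is approximate, obtained from it and the F statistic. CPM are counts scaled by the TMM library size. Isoform ratios of FPKM were compared by an exact two-sided permutation test. GC content and length are means over GENCODE M21 transcripts, and their trends were removed with lowess offsets (span 0.3, 3 rounds). The script was tested on simulated data. Alternatives were DESeq2 1.42.0, limma 3.58.1 on log2(FPKM + 1) and log2(FPKM + 0.1), other scalings and filters, the replicate number as a block, and leaving out libraries; leaving out TAC replicate 3 and sham replicate 1 together was chosen after seeing the data. Promoters are from RefSeq.

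The members and the gene lists were chosen with earlier results of these data known. Genes given by library were those called, those in isoform pairs, and in each complex the 4 with the highest mean FPKM and the 2 highest and 2 lowest log2 fold changes; other list genes were named when called or, with none called, as the 2 with the highest mean FPKM. Cox7c, Atp5j and others given beyond this were chosen after their values were seen. Same-numbered TAC and sham libraries deviated from their group means with correlations of -0.10, 0.14 and -0.06, so the numbers were not taken to pair them.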

Additional observations from a re-analysis of the deposited data

How the results depend on the processing

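Calls over all genes numbered 615, against 1648 in DESeq2, 285 with no filter, 211 at a mean FPKM of 5 or more, 183 with the replicate number as a block, 181 with the block and the GC and length trends removed, and 12 to 1705 on leaving out libraries. Members called higher numbered 2, against 1 with limma at either pseudocount, 0 with no filter, 0 with the block, 0 with the trends removed, 0 with both, and 0 to 6 on leaving out libraries. Members called lower numbered 0, against 2 with the trends removed, 1 with the block as well, and 0 to 2 on leaving out libraries. With the replicate block, Uqcrb was at 0.87 (edgeR adjusted p = 0.051) and Cox7b at 0.60 (edgeR adjusted p = 0.092). The cause of these shifts was not tested. Without the filter the median of all tested genes was -0.11.

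Signs that turned belong to members not called in the main fit, apart from Cox7b at -0.13 with the trends removed, with or without the block. Under those same 2 settings Cycs was at -0.51 and -0.54, Cox6b1 at -0.014 and -0.015, and Cox8a at 0.033 and 0.033. Cox8a was at 0.0023 with DESeq2 and at 0.0023 with RLE scaling. Under upper-quartile scaling and at a mean FPKM of 5 or more, Atp5g3 was at 0.032 and 0.040, Cox6a1 at 0.030 and 0.035, Cox8a at 0.061 and 0.072, Uqcrfs1 at 0.030 and 0.047, and Uqcrq at 0.060 and 0.067. Under limma with pseudocounts of 1 and 0.1 and with no filter, Cox4i2 was at -0.17, -0.18 and -0.068, Cox6b1 at -0.076, -0.076 and -0.019, and Cox8b at -0.14, -0.14 and -0.098. With the block Cox4i2 was at -0.031. Of the members not given by library under the naming rule, Cox7c (-0.70), Atp5md (-0.49), Uqcrc2 (-0.35), Atp5l (-0.15), Cox6c2 (-0.11), Cox7a2l (-0.07) and Uqcrh (-0.06) also turned, to below 0, with the trends removed. Such members turned under other settings as well. With limma at a pseudocount of 1, Cox7c (-0.15), Uqcr10 (-0.15), Cox7a2l (-0.12), Atp5md (-0.04) and Cox6c2 (-0.03) were below 0. Without TAC replicate 3, Cox5b (0.21), Uqcr11 (0.19), Atp5h (0.16), Cox5a (0.15) and Atp5e (0.08) were above 0.

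On leaving out libraries the values ran from -0.38 to 0.059 for Atp5g1, -0.21 to 0.20 for Atp5g3, -0.30 to 0.021 for Cox4i1, -0.18 to 0.28 for Cox4i2, -0.29 to 0.23 for Cox6a1, -0.26 to 0.11 for Cox6a2, -0.078 to 0.24 for Cox6b1, -0.35 to 0.075 for Cox7a1, -0.19 to 0.19 for Cox8a, -0.20 to 0.19 for Cox8b, -0.11 to 0.062 for Uqcrfs1 and -0.25 to 0.25 for Uqcrq. The log2 difference of the Cox6a1 to Cox6a2 ratio ran from -0.13 to 0.10, that of Cox8a to Cox8b from -0.14 to 0.085, and that of the Atp5g1 share from -0.077 to 0.0018.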
